A study of Homo sapiens with 9 samples.

Results

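HKC-8 cells labelled as given a Wnt1 plasmid together with KP6 were compared with HKC-8 cells labelled as given an empty vector, which asks what the combined treatment changed in tubular cells. HKC-8 is an established human line from the kidney proximal tubule. The 6 libraries of the comparison, 3 labelled Wnt1 plasmid plus KP6 (Wnt1_KP6) and 3 labelled with the pcDNA3 vector (control), were taken by their titles out of 9 libraries in the series. The other 3 are labelled with the Wnt1 plasmid alone (Wnt1) and are used for the estimate of spread and for values set side by side. Both groups are the same line with no other named agent, and they differ in the plasmid and in KP6 together, so the effects of plasmid and KP6 cannot be told apart within the comparison. The labels give no dose of plasmid or KP6, no duration and no word on whether the 3 libraries of a group were separate cultures. A p-value here therefore measures the spread among these libraries, and that spread may be technical.

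Wnt ligands bind Frizzled receptors with an LRP co-receptor, which stops the breakdown of beta-catenin and lets it act with TCF factors at target genes. Klotho is a kidney protein, made mainly in the tubules, that can bind Wnt ligands and keep them from their receptors, and KP6 is a peptide derived from it. ATF3, named in the title of the series, is a transcription factor of the ATF and AP-1 family that cells make under stress. Interferon-stimulated genes, which lead the changes described here, are switched on when cells sense foreign nucleic acid or interferon, through factors that bind a short purine-rich element in their promoters. Metallothioneins are small cysteine-rich proteins that bind zinc and copper, and the factor MTF1 drives them through metal-response elements.

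Library totals ran from 23670283 to 27140742 expected counts in these 6 libraries, and 13153 of 20323 genes were tested. Replicate 1 stood apart in every group: the first principal component, with 37.1% of the variance, put the 3 replicate 1 libraries at -43.76 to -41.56 and the other 6 at 10.62 to 27.58. Mitochondrial transcripts took 5.18% of counts in control replicate 1 and 5.72% in Wnt1_KP6 replicate 1, against 7.01% to 7.97% in replicates 2 and 3 of both groups. Wnt1_KP6 replicate 1 lay close to Wnt1 replicate 1, with a chi-square over its degrees of freedom of 3.51, and Wnt1_KP6 replicates 2 and 3 lay as close to each other (3.38). Control replicate 1 and Wnt1_KP6 replicate 1 gave 51 on the same measure, and control and Wnt1_KP6 gave 121 and 116 in replicates 2 and 3. Deviations from the group means correlated at 0.323 to 0.654 between replicate 1 libraries and at 0.112 to 0.377 between same-numbered libraries of replicates 2 and 3. Differently numbered libraries of replicates 2 and 3 in different groups correlated at 0.134 to 0.345, so these data set replicate 1 apart from the rest but do not tell replicate 2 from replicate 3. The replicate number entered the test as a block.

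Proximal tubule identity was checked against 28 markers, of which 13 were expressed highly enough to be tested and 3 (SLC5A12, SLC22A6 and SLC22A8) had 0 counts in all 6 libraries. The endocytic receptor LRP2 had counts in control replicate 3 only (0.077 CPM), the phosphate transporter SLC34A1 stayed at or below 0.0894 CPM and the water channel AQP1 at or below 0.217 CPM. The brush-border enzyme GGT1 was at 156, 146 and 170 CPM in control and 135, 167 and 162 CPM in Wnt1_KP6, and the kidney lineage factor PAX8 was at 525, 482 and 571 CPM and 651, 810 and 777 CPM. The line thus carried lineage factors and some tubule enzymes but lacked several defining transporters. The summed level of the 28 markers was 554 to 621 CPM in control and 532 to 624 CPM in Wnt1_KP6. The 18 markers of fibroblasts, endothelium and blood summed to 59.4 to 74.6 CPM in control and 47.2 to 67.5 CPM in Wnt1_KP6. KDR, PTPRC, CD3E and HBB were among the 5 at 0 in all 6 libraries. CD68 and COL1A1 were expressed. CD68 had 1067, 1041 and 1311 counts in control and 1243, 672 and 585 in Wnt1_KP6. COL1A1 had 675, 566 and 607 counts in control and 398, 525 and 465 in Wnt1_KP6. In bulk RNA, fewer cells that express a gene and less RNA per cell cannot be told apart.

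The promoters below carry the sequence elements that go with the main gene groups, taken from RefSeq on GRCh38.p14 and printed 5′ to 3′ on the strand of the gene for the 250 bases before its start site. Capitals mark matches to the interferon element GAAANNGAA in the first 3, to the TCF element CTTTGAA or CTTTGAT in DKK1 and to the metal element TGCGCNC or TGCACNC in MT1X, searched on both strands. IFIT1 lies on chromosome 10 (chr10:89392373-89392622, plus strand), ISG15 on chromosome 1 (chr1:1013247-1013496, plus strand) and IFIH1 on chromosome 2 (chr2:162318685-162318934, minus strand). DKK1 lies on chromosome 10 (chr10:52314031-52314280, plus strand) and MT1X on chromosome 16 (chr16:56682220-56682469, plus strand). The first 3 belong to genes that rose and code for antiviral proteins. DKK1 is a Wnt feedback gene that rose, and MT1X, which was itself not called, stands for the metallothioneins.
IFIT1: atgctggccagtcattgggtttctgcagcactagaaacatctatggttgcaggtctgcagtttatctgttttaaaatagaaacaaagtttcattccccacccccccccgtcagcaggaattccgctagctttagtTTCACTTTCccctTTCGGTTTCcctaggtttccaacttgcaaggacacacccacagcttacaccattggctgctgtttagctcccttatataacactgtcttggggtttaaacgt
ISG15: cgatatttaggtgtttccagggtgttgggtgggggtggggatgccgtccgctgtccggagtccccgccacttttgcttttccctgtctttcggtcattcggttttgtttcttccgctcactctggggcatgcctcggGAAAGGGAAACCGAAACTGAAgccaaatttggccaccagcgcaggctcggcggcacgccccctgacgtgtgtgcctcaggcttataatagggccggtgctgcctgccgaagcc
IFIH1: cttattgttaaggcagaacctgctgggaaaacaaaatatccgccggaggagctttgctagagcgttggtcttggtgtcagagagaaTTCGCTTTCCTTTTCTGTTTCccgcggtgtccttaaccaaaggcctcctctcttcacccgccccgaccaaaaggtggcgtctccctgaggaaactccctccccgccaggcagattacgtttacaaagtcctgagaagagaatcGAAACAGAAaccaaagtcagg
DKK1: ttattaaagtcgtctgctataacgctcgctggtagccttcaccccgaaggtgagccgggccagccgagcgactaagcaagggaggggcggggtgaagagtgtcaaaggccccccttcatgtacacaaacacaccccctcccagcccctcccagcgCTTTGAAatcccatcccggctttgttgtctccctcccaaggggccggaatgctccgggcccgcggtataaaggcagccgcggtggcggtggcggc
MT1X: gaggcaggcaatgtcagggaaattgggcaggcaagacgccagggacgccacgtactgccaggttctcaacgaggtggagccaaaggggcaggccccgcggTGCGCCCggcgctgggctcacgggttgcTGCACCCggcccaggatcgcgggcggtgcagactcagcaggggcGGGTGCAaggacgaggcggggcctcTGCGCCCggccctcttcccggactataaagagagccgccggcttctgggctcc

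The interferon element occurred in 22 of 32 promoters of the interferon list (68.8%), against 8.29% of all 27305 RefSeq promoter windows and 6.39% of the 10495 windows of tested genes. Windows here ran from 250 bases before to 50 bases after the start. Among the 14 list members called higher, 9 had a promoter in the table and 8 of these held the element (88.9%), whereas 8 of 80 promoters of the other genes called higher held it (10%). In ISG15 and IFIH1 consecutive matches overlapped by 3 bases. The metal element occurred in 5 of 6 metallothionein promoters, but it is frequent, with 39% of the promoters of tested genes. The TCF element was found in 4 of 19 promoters of the Wnt feedback list (21.1%) and in 3.84% of those of tested genes. AP-1 elements (TGANTCA) were in 6 of 89 promoters of genes called higher (6.74%, against 4.52% of tested genes), CRE elements (TGACGTCA) in 1 and antioxidant elements (TGACNNNGC, which can overlap AP-1 elements) in 14 (15.7%, against 15%). These matches describe the letters of the windows and are not evidence of binding.

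WNT1 (ENSG00000125084), on hg38 chromosome 12 from 48978453 to 48981676, was at 0 counts in each control library and at 1, 2 and 0 counts in the Wnt1_KP6 libraries. A count of 0 allows up to 0.106 to 0.116 CPM in a control library, by counting error alone. It was also at 0 counts in each of the 3 libraries labelled with the Wnt1 plasmid alone, where a count of 0 allows up to 0.106 to 0.142 CPM. WNT1 expression from a plasmid was thus not detected in the deposited counts, which goes against the plasmid label. The labels do not give the sequence that the plasmid carries, and Wnt1_KP6 and Wnt1 are used here only as the names on the libraries. Every direction given below is between libraries so labelled. CTNNB1 (ENSG00000168036, chromosome 3, 41194741 to 41260096), the gene of beta-catenin, was at 314, 298 and 273 CPM in control and 305, 288 and 286 CPM in Wnt1_KP6. The libraries of both groups covered the same range, and the log2 fold change was -0.01 ± 0.07 (SE, adjusted p = 0.973). KL (ENSG00000133116, chromosome 13, 33016433 to 33066145), the gene of Klotho, was at 4.04, 3.67 and 3.7 CPM in control and 1.71, 2.87 and 3.93 CPM in Wnt1_KP6, a log2 fold change of -0.49 ± 0.29 (adjusted p = 0.383). It was low throughout, and its replicate 3 values did not differ in the direction of the other 2.

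ATF3 (ENSG00000162772, chromosome 1, 212565334 to 212620777) was at 18.3, 7.85 and 8.78 CPM in control and 25.4, 668 and 664 CPM in Wnt1_KP6. The groups did not overlap, but replicate 1 accounted for a log2 ratio of 0.48 and replicates 2 and 3 for 6.41 and 6.24. The fitted log2 fold change of 4.61 ± 1.30 did not pass (adjusted p = 0.125), whereas without replicate 1 ATF3 was called higher at 6.32 (adjusted p = 2.57e-13). DESeq2 with the same block called it with all libraries (adjusted p = 0.00133).

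In the whole comparison 149 of 13153 tested genes were called (1.13%), 122 higher (0.928%) and 27 lower (0.205%) in Wnt1_KP6. Called means a p under 0.05 in edgeR's quasi-likelihood test after Benjamini-Hochberg adjustment over all tested genes. Of these, 58 changed by a doubling or more (0.441% of tested genes), 52 higher (0.395%) and 6 lower (0.0456%). All 149 had the same sign in the 3 replicate pairs, and in 36 the log2 ratio was at least 1 in size in every pair. The block test favours genes whose 3 pairs agree, so these counts are partly conditions of a call and not further support. Their shares over all tested genes were not counted. The groups' libraries did not overlap for 120 of the 149, and for 2176 of all tested genes (16.5%, with 8.74% higher and 7.8% lower). Genes named below for the size of their change were taken among those without overlap. For them the lack of overlap is a condition of choice. Without replicate 1 the test called 4884 of 13041 genes (37.5%), 2584 higher (19.8%) and 2300 lower (17.6%), all 149 among them. Each group then has 2 libraries, which lay closer to each other than to replicate 1. Their chi-square over its degrees of freedom was 3.38 in Wnt1_KP6 and 13.9 in control.

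Size of change depended on the replicate number. A log2 ratio of at least 1 in size was seen for 585 genes in replicate 1, for 1152 in replicate 2 and for 1188 in replicate 3. Among the 149 called genes 88 had their smallest ratio in replicate 1. With no block 30 genes were called (0.228%), 25 higher (0.19%) and 5 lower (0.038%), and 29 of the 30 were among the 149. DESeq2 with the block called 958 genes (7.28%), 678 higher (5.15%) and 280 lower (2.13%).

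**Figure D1:**
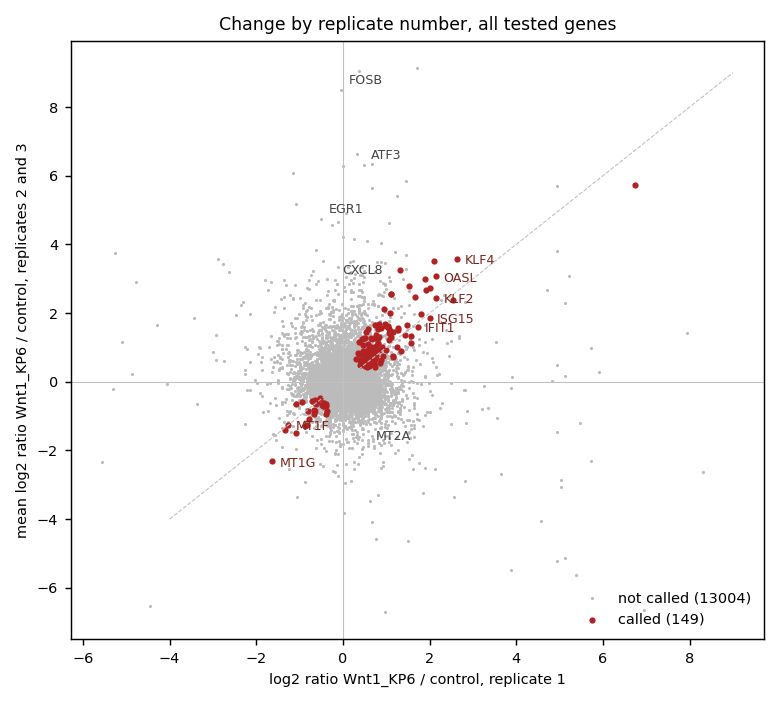
Log2 ratio of Wnt1_KP6 to control in replicate 1 (horizontal axis) against the mean log2 ratio of replicates 2 and 3 (vertical axis), with 1 point per tested gene, called genes in red and the dashed line marking equal ratios. The 149 called genes lie in the quadrants where both axes have the same sign, which the block test favours. FOSB, ATF3 and EGR1 lie between -0.50 and 0.48 on the horizontal axis and far above 0 on the vertical one.

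Interferon-stimulated genes gave the most calls of any list. Of 42 genes listed, 38 were tested and 14 were called higher (background 0.928%), with none lower. With no replicate block only MX1 of the list was called (0.19% of all tested genes were called higher in that fit), with an adjusted p of 0.257 for IFIT1, 0.167 for ISG15 and 0.26 for OASL. Without replicate 1 27 members were called higher and 1 lower, where 19.8% of all tested genes were called higher and 17.6% lower. The median log2 fold change over the 38 was 0.76 (0 over all tested genes), and the median ratio was 0.73, 0.80 and 0.73 in replicates 1, 2 and 3. IFIT1 (ENSG00000185745, chromosome 10, 89392546 to 89406486), which binds foreign RNA and blocks its translation, was at 31.1, 10.4 and 10.6 CPM in control and 103, 32.1 and 31.6 CPM in Wnt1_KP6. Replicate 1 was the highest library of each group, and each Wnt1_KP6 library stood above its control partner by about the same factor. The log2 fold change was 1.65 ± 0.10 (adjusted p = 0.00269), with ratios of 1.73, 1.62 and 1.58.

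ISG15, a ubiquitin-like protein attached to other proteins in the antiviral response, was at 36.4, 15.2 and 17.5 CPM in control and 146, 64.2 and 55.6 CPM in Wnt1_KP6. No Wnt1_KP6 library overlapped the control libraries, and ISG15 rose by 1.92 ± 0.13 on the log2 scale (adjusted p = 0.00269). OASL, an enhancer of RNA sensing by RIG-I, was at 28.7, 5.28 and 4.35 CPM in control and 127, 42.5 and 38.5 CPM in Wnt1_KP6. It rose most among the members above 5 CPM, by 2.74 ± 0.20 (adjusted p = 0.00375), with ratios of 2.15, 3.01 and 3.14. IFIT2 and IFI44 rose by 1.58 ± 0.11 and 1.39 ± 0.09, although control replicate 1 overlapped the Wnt1_KP6 libraries (61.2 CPM for IFIT2 in control replicate 1 against 49.1 and 45.3 CPM in Wnt1_KP6 replicates 2 and 3). MX1, a GTPase that traps viral nucleocapsids, was at 6.89, 5.5 and 5.12 CPM in control and 16.7, 17.2 and 14.2 CPM in Wnt1_KP6, with no overlap (1.46 ± 0.16, adjusted p = 0.014).

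The other called members, listed here in full after their values were seen, were IFIT3, IFIH1, DDX58, HERC5, HERC6, IRF7, RSAD2 and OAS2. IFIH1 and DDX58 encode the cytosolic RNA sensors MDA5 and RIG-I and rose by 0.84 ± 0.08 and 1.09 ± 0.15. IFIH1 was at 32.8, 21.4 and 20.1 CPM in control and 53.7, 40.1 and 37.9 CPM in Wnt1_KP6. HERC5, the ligase that attaches ISG15, rose by 0.88 ± 0.10 and its relative HERC6 by 0.60 ± 0.08. The factor IRF7, an amplifier of type I interferon production, rose by 0.79 ± 0.12. RSAD2 and OAS2 rose by 2.43 ± 0.31 and 2.42 ± 0.41 from levels of 0.193 to 2.39 CPM, so their folds are less certain. ZC3HAV1, a zinc finger protein that targets viral RNA and stands outside the list, was at 382, 168 and 164 CPM in control and 1124, 366 and 356 CPM in Wnt1_KP6 (1.27 ± 0.10, adjusted p = 0.0045).

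IRF1, a factor induced by interferon, was at 28.2, 19.4 and 23.3 CPM in control and 45, 72.5 and 71.3 CPM in Wnt1_KP6, and its 1.43 ± 0.25 missed the threshold (adjusted p = 0.0555), with 22.0% of its exon bases overlapping a gene on the opposite strand. The libraries labelled Wnt1, which are set against the same control libraries, had IFIT1 at 98, 39.2 and 40.4 CPM, ISG15 at 145, 46.5 and 50.7 CPM and OASL at 125, 25 and 26 CPM. The direct difference between Wnt1_KP6 and Wnt1 was -0.19 ± 0.10 for IFIT1, 0.20 ± 0.12 for ISG15 and 0.46 ± 0.18 for OASL, each with an adjusted p of 1. Across all genes that direct test called 0 genes (0%), with 493 at an unadjusted p under 0.05 and a lowest adjusted p of 0.185.

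**Figure D2:**
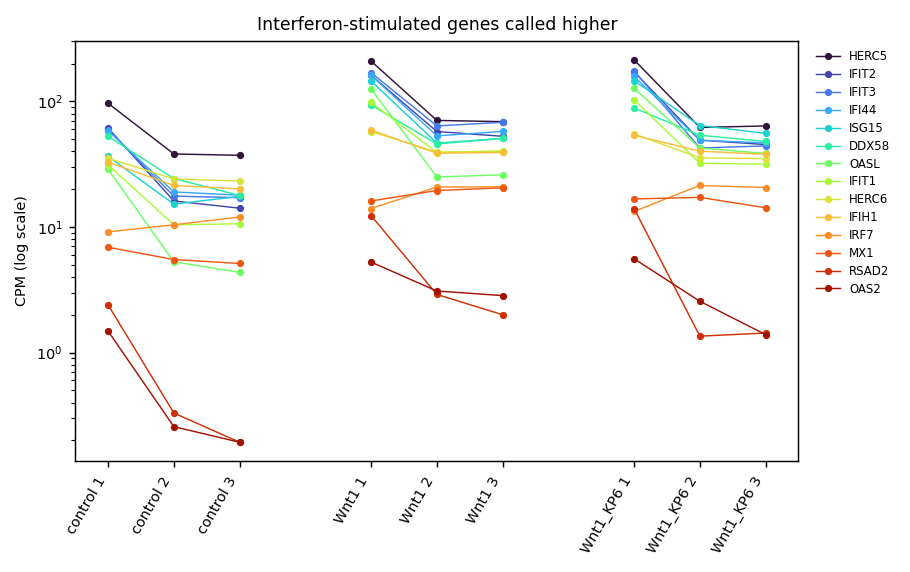
Level in CPM (log scale) of the 14 interferon-stimulated genes called higher in each of the 9 libraries, with points for libraries and lines that only join the 3 libraries of a group for 1 gene. IFIT1 runs from 10.4 to 31.1 CPM in control and from 31.6 to 103 CPM in Wnt1_KP6, and replicate 1 is the highest library of each group for most of the 14.

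Early response factors, which cells make within minutes of a stimulus without new protein synthesis, were far above control in replicates 2 and 3 and closer to it in replicate 1. Of 27 tested members 3 were called higher (background 0.928%) and none lower. The median log2 fold change was 1.50, from median ratios of 0.38, 2.10 and 1.86 in replicates 1, 2 and 3, and without replicate 1 24 members were called higher and 2 lower (19.8% and 17.6% of all genes). With no block KLF2 was called, KLF4 and MYC were not (adjusted p = 0.146 and 0.245), and BHLHE40, not called with the block, was (0.0468). KLF4 (ENSG00000136826, chromosome 9, 107484852 to 107490482), a zinc finger factor of epithelial differentiation, was at 10.6, 2.71 and 3.12 CPM in control and 66, 38.8 and 31.5 CPM in Wnt1_KP6. Every Wnt1_KP6 library exceeded every control library, and KLF4 rose most of the called genes that average 5 CPM or more (3.32 ± 0.36, adjusted p = 0.0159). Its relative KLF2, an anti-inflammatory factor best known from endothelium, was at 2, 1.72 and 2.2 CPM in control and 8.96, 12.3 and 9.3 CPM in Wnt1_KP6 (2.38 ± 0.33, adjusted p = 0.0274).

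MYC, a driver of growth and a Wnt target, was the third called member, at 127, 234 and 264 CPM in control and 199, 622 and 580 CPM in Wnt1_KP6 (1.08 ± 0.18, adjusted p = 0.0488). Control replicates 2 and 3 were above Wnt1_KP6 replicate 1, so the groups overlapped. FOSB, an AP-1 subunit, was at 2.46, 1.8 and 2.62 CPM in control and 2.39, 844 and 755 CPM in Wnt1_KP6. FOS was at 3.55, 1.28 and 1.16 CPM in control and 5.62, 97.9 and 101 CPM in Wnt1_KP6, and EGR1 at 22.5, 21.8 and 30.7 CPM and 15.9, 689 and 698 CPM. Replicates 2 and 3 were thus high for these 3 genes and Wnt1_KP6 replicate 1 was at or below the control range for FOSB and EGR1. None of them passed with all libraries (adjusted p = 0.112, 0.0971 and 0.146), and all 3 were chosen after their values were seen.

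Among ATF and AP-1 factors 1 of 22 tested members was called higher (background 0.928%), MAFG, a small MAF protein that partners NRF2. MAFG was at 111, 113 and 119 CPM in control and 151, 278 and 271 CPM in Wnt1_KP6, with no overlap (0.98 ± 0.16, adjusted p = 0.04). JUN was at 88.1, 108 and 125 CPM in control and 169, 714 and 713 CPM in Wnt1_KP6, with an adjusted p of 0.0599 (2.15 ± 0.39). The median over the list was 0.95, from 0.46, 1.19 and 1.09 by replicate number, and 15 members were called higher without replicate 1 (19.8% of all genes). MAFG was not called with no block. No member of the MAPK feedback list was called among 19 tested (0% against 1.13% of all genes). Its median was 0.96, and without replicate 1 15 were called higher and 1 lower (19.8% and 17.6% of all genes).

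**Figure D3:**
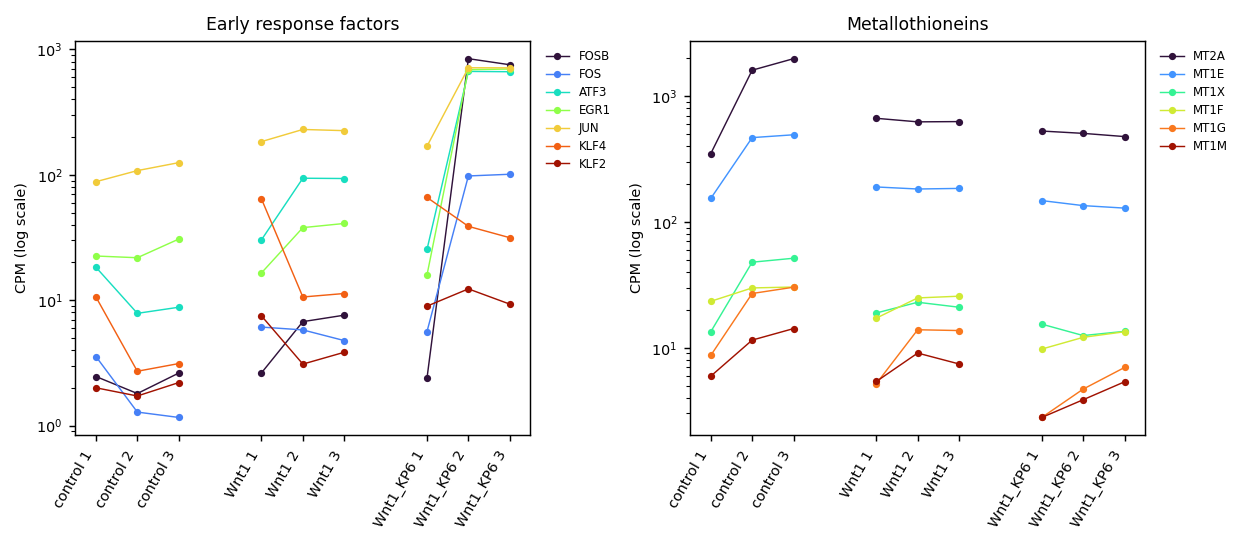
Level in CPM (log scale) of 7 early response factors (left) and 6 metallothioneins (right) in each of the 9 libraries, with lines that only join the libraries of a group. FOSB is at 2.39 CPM in Wnt1_KP6 replicate 1 and at 844 and 755 CPM in replicates 2 and 3, while KLF4 is higher than control in all 3, and MT1F is at 23.4 to 30.4 CPM in control and 9.76 to 13.4 CPM in Wnt1_KP6.

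CSF3, the granulocyte growth factor, was the only cytokine called of 13 tested (background 0.928% higher). It was at 0.633, 0.513 and 0.655 CPM in control and 2.59, 5.12 and 3.13 CPM in Wnt1_KP6, without overlap (2.55 ± 0.32, adjusted p = 0.0189). IL6 was at 21.9, 54 and 58.4 CPM in control and 81.6, 468 and 441 CPM in Wnt1_KP6 (2.76 ± 0.51, adjusted p = 0.0612), with 20.7% of its exon bases overlapping a gene on the opposite strand. The groups of IL6 did not overlap either, but its ratio was 1.90 in replicate 1 and 3.12 and 2.92 in the others. None of 11 tested chemokines was called with all libraries, and 8 were called higher and 2 lower without replicate 1. In that fit 19.8% of all tested genes were called higher and 17.6% lower, so the 2 lower calls are near the background. CXCL2, a neutrophil attractant, was at 26.6, 43.6 and 49 CPM in control and 52.3, 335 and 314 CPM in Wnt1_KP6 (2.30 ± 0.42, adjusted p = 0.0605). TNFSF9, the ligand of the T cell receptor 4-1BB, rose from 28.9, 12.8 and 14.8 CPM to 63, 83.7 and 80.2 CPM, with no overlap (2.10 ± 0.29, adjusted p = 0.0331). TNFSF9 is in no list.

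Of 18 NF-kB subunits and inhibitors 2 were called higher (background 0.928%), and neither was called with no block. RELB, a subunit of the non-canonical pathway, was at 29.7, 29.8 and 34.9 CPM in control and 41.2, 70.2 and 64.9 CPM in Wnt1_KP6 (0.88 ± 0.15, adjusted p = 0.047). NFKBIB, an inhibitor that holds NF-kB in the cytoplasm, rose by 0.75 ± 0.13 (adjusted p = 0.0471). Of the 18 members 17 lay above 0, as did 49.6% of all tested genes, and 16 were called higher without replicate 1, where 19.8% of all genes were.

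Metallothioneins had the lowest median of the 43 gene lists. Of 8 tested members of the list, which also holds their factor MTF1 and the zinc exporter SLC30A1, 3 were called lower (background 0.205%) and none higher, and the median log2 fold change was -1.28. With no block 1 of the 3 was called, MT1F (adjusted p = 0.0468). MT1G (ENSG00000125144, chromosome 16, 56666731 to 56668065) was at 8.69, 27 and 30.3 CPM in control and 2.79, 4.69 and 6.97 CPM in Wnt1_KP6. All Wnt1_KP6 libraries were below all control libraries, and MT1G fell by 2.11 on the log2 scale (SE 0.18, adjusted p = 0.00536). MT1F (ENSG00000198417, chromosome 16, 56657694 to 56660698) was at 23.4, 29.9 and 30.4 CPM in control and 9.76, 12.1 and 13.4 CPM in Wnt1_KP6. Its ratios of -1.26, -1.30 and -1.19 were almost equal in the 3 pairs (-1.25 ± 0.09, adjusted p = 0.0038). MT1M fell by 1.36 (SE 0.19, adjusted p = 0.0287), from 5.94, 11.5 and 14.2 CPM to 2.79, 3.86 and 5.36 CPM.

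MT2A, MT1E and MT1X did not pass, with lower values in Wnt1_KP6 in replicates 2 and 3. In replicate 1 MT2A and MT1X were above control, and MT1E was slightly below it (a log2 ratio of -0.06). MT2A, the most abundant of them per length (a mean of 3336 FPKM in control), was at 350, 1612 and 1991 CPM in control and 529, 507 and 478 CPM in Wnt1_KP6 (-1.22 ± 0.53, adjusted p = 0.255). Control replicate 1 was the lowest of these 6 libraries, and the ratio there was 0.59. MT1E was at 154, 469 and 494 CPM in control and 148, 135 and 129 CPM in Wnt1_KP6 (-1.35 ± 0.38, adjusted p = 0.127), and MT1X was not called either (-1.31 ± 0.43, adjusted p = 0.16). Without replicate 1 the 6 metallothioneins were called lower (17.6% of all genes) and MTF1 and SLC30A1 higher (19.8%). Metallothionein genes are close paralogs, so the authors' counting may have divided reads among them, and the value of a single member is uncertain. In the libraries labelled Wnt1 MT1F was at 17.2, 24.9 and 25.7 CPM and MT1G at 5.18, 13.9 and 13.7 CPM, between the levels in control and Wnt1_KP6 of the same number. The direct difference between Wnt1_KP6 and Wnt1 was -0.93 ± 0.09 for MT1F (adjusted p = 0.185, the lowest of all genes) and -1.15 ± 0.18 for MT1G (adjusted p = 0.997).

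Genes of the antioxidant response, which NRF2 drives, formed the list with the second-most calls. Of 35 tested 8 were called higher (background 0.928%) and none lower, and the median was 0.61, from 0.29, 0.72 and 0.60 by replicate number. With no block 2 of the 8 were called, TXNRD1 and AKR1C1, and without replicate 1 25 members were called higher and 1 lower (19.8% and 17.6% of all genes). TXNRD1, the cytosolic thioredoxin reductase, was at 1538, 1496 and 1316 CPM in control and 2190, 2467 and 2464 CPM in Wnt1_KP6. The groups were well apart, and TXNRD1 rose by 0.71 ± 0.09 (adjusted p = 0.0207). SRXN1, which repairs oxidised peroxiredoxins, was at 105, 144 and 144 CPM in control and 220, 443 and 392 CPM in Wnt1_KP6 (1.38 ± 0.11, adjusted p = 0.00513). Its value is uncertain, since 85.0% of its exon bases overlap another gene on the same strand.

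OSGIN1, a growth inhibitor induced by oxidants, rose from 23.2, 18.4 and 19.5 CPM to 50.1, 117 and 108 CPM, with no overlap (2.05 ± 0.32, adjusted p = 0.0471), and 13.9% of its exon bases overlap another gene on the same strand. TKT, the transketolase of the pentose phosphate pathway, was at 853, 708 and 792 CPM in control and 1245, 1034 and 999 CPM in Wnt1_KP6, with no overlap (0.48 ± 0.07, adjusted p = 0.0344). AKR1C1, an aldo-keto reductase with near-identical paralogs, rose by 1.43 ± 0.15 from 3.39 to 3.62 CPM in control. The cystine importer SLC7A11 and MAFG were also among the 8. HMOX1, which breaks down haem, was at 93.1, 37.8 and 42.1 CPM in control and 181, 470 and 416 CPM in Wnt1_KP6 and was not called (2.50 ± 0.60, adjusted p = 0.0937). Its ratio was 0.96 in replicate 1 and 3.64 and 3.30 in replicates 2 and 3.

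Of 38 tested genes of the integrated stress response, which ATF4 drives when translation is curbed, 5 were called higher (background 0.928%) and none lower, with a median of 0.21, from 0.32, 0.19 and 0.13 by replicate number. With no block only TRIB3 was called. TRIB3, a pseudokinase of this response, was at 125, 91.6 and 100 CPM in control and 255, 303 and 273 CPM in Wnt1_KP6, without overlap (1.40 ± 0.13, adjusted p = 0.00842). SLC3A2, the partner chain of SLC7A11 and of the leucine importer, rose by 0.71 ± 0.08 and the tryptophanyl-tRNA synthetase WARS1 by 0.54 ± 0.07. WARS1 and VEGFA, the other called member, are also known to respond to interferon and to hypoxia. ASNS, asparagine synthetase and a standard ATF4 target, did not follow them, at 32.5, 118 and 107 CPM in control and 51.6, 91.3 and 83.1 CPM in Wnt1_KP6 (-0.07 ± 0.26, adjusted p = 0.91), and 44.6% of its exon bases overlap another gene on the same strand. Without replicate 1 19 members were called higher and 7 lower, and the lower share is near the background of that fit (17.6% of all genes lower, 19.8% higher).

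In the unfolded protein response list 1 of 33 tested genes was called higher (background 0.928%), the secreted factor MANF (0.66 ± 0.11, adjusted p = 0.047). The chaperone HSPA5 was at 994, 693 and 636 CPM in control and 1385, 2355 and 2203 CPM in Wnt1_KP6 (1.33 ± 0.26, adjusted p = 0.0668). Its groups did not overlap, but the ratio was 0.48 in replicate 1 and 1.76 and 1.79 in the others. No gene of the heat shock list was called among 23 tested (1.13% of all tested genes were called), and its median was 0.03. Without replicate 1 23 of the 33 unfolded protein response genes were called higher and 0 lower. In the heat shock list 9 were called higher and 1 lower in that fit (19.8% and 17.6% of all genes).

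Mitophagy, the removal of damaged mitochondria by autophagy, is named in the title of the series. Without replicate 1 8 of 36 tested mitophagy genes were called higher and 7 lower (19.8% and 17.6% of all genes). With all libraries 1 of the 36 was called (1.13% of all tested genes were), and the median of the list was 0.02. That gene was SQSTM1 (ENSG00000161011, chromosome 5, 179806398 to 179838078), the receptor p62 that carries ubiquitinated cargo to autophagosomes and is also an NRF2 target. It was at 1108, 1062 and 1174 CPM in control and 1893, 2980 and 2751 CPM in Wnt1_KP6, with no overlap (1.16 ± 0.13, adjusted p = 0.014). Of its exon bases 22.0% overlap a gene on the opposite strand, MRNIP, and the library kit is not stated to keep strand. MRNIP, looked up because of this overlap, was itself called (1.24 ± 0.19, adjusted p = 0.0389), so reads of the pair cannot be told apart in the overlap.

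PINK1, the kinase that marks damaged mitochondria, was at 28.2, 49.9 and 53.1 CPM in control and 44, 30.8 and 31 CPM in Wnt1_KP6 (-0.32 ± 0.29, adjusted p = 0.572). It was higher in Wnt1_KP6 in replicate 1 (0.64) and lower in replicates 2 and 3 (-0.69 and -0.78), and 39.4% of its exon bases overlap a gene on the opposite strand. The receptor BNIP3 did the same, with 113, 110 and 112 CPM in control and 169, 70.4 and 66.4 CPM in Wnt1_KP6 (-0.31 ± 0.27, adjusted p = 0.56). Both were chosen after their values were seen. None of 32 tested autophagosome genes was called, with MAP1LC3B, the gene of the autophagosome marker LC3B, at 76.4, 67.2 and 62.6 CPM in control and 77.3, 145 and 152 CPM in Wnt1_KP6 (0.81 ± 0.22, adjusted p = 0.112). No gene was called among 25 of mitochondrial dynamics and biogenesis, 48 nuclear and 13 mitochondrial respiratory chain genes, whose medians were 0.03, -0.10 and 0.05. Over all tested genes the share called was 1.13%.

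Lysosomal genes gave 3 calls of 40 tested, all higher (background 0.928%), and a median of 0.25, from 0.10, 0.34 and 0.35 by replicate number. None of the list was called with no block, and without replicate 1 25 were called higher and 4 lower (19.8% and 17.6% of all genes). NPC1, which exports cholesterol from the lysosome, was at 173, 116 and 118 CPM in control and 251, 322 and 311 CPM in Wnt1_KP6, with no overlap (1.15 ± 0.18, adjusted p = 0.0366). MCOLN1, a lysosomal calcium channel, and CLCN7, a lysosomal chloride exchanger, rose by 0.66 ± 0.10 and 0.61 ± 0.09.

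All 33 tested genes of sterol and fatty acid synthesis lay above 0, where 49.6% of all tested genes did. Only SREBF1 was called (background 0.928% higher). The median was 1.17, made up of ratios of 0.04 in replicate 1 and 1.90 and 1.96 in replicates 2 and 3. SREBF1, the master factor of lipid synthesis, was at 142, 101 and 121 CPM in control and 216, 221 and 215 CPM in Wnt1_KP6 (0.85 ± 0.11, adjusted p = 0.0219). FASN, fatty acid synthase, was at 1399, 438 and 548 CPM in control and 1948, 2531 and 2436 CPM in Wnt1_KP6 (1.64 ± 0.43, adjusted p = 0.108). Control replicate 1 was the highest control library, and the ratio there was 0.48. Without replicate 1 31 of the 33 were called higher (19.8% of all genes).

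**Figure D4:**
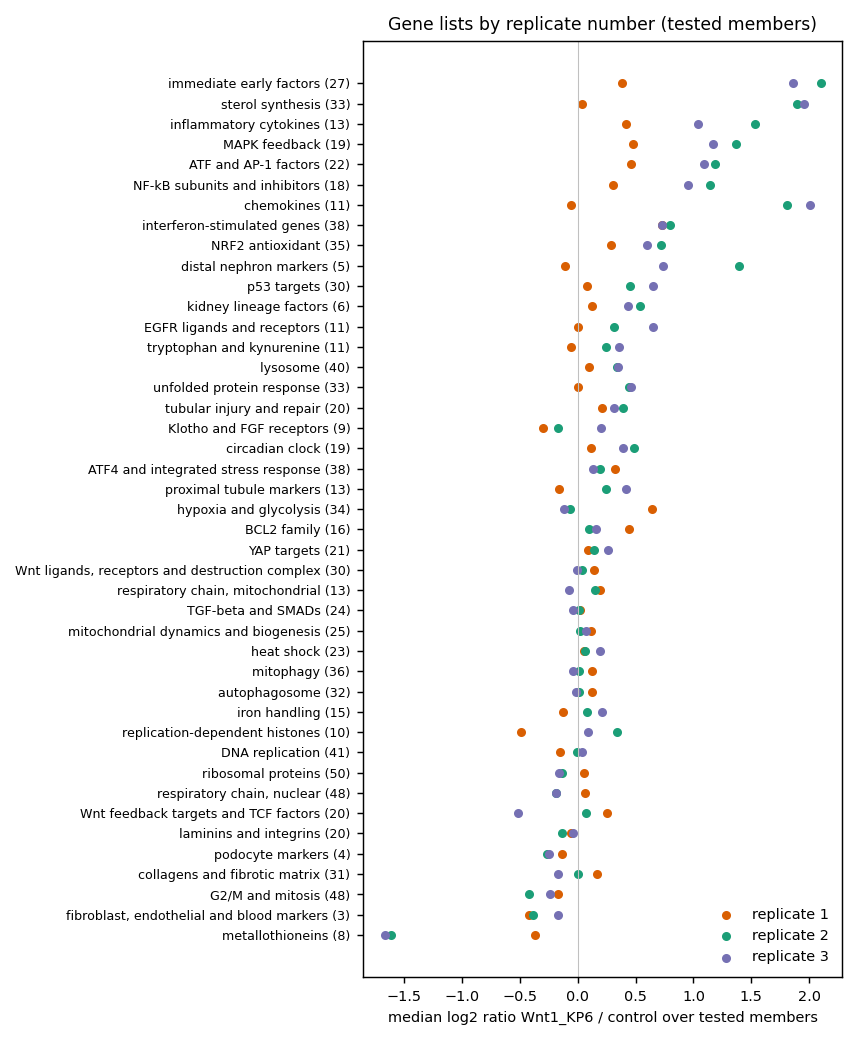
Median log2 ratio of Wnt1_KP6 to control over the tested members of each of 43 gene lists (number of tested members in brackets), with 1 point per replicate number. The interferon-stimulated genes have nearly equal medians of 0.73, 0.80 and 0.73, whereas sterol synthesis has 0.04 in replicate 1 and 1.90 and 1.96 in the others.

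Among 20 tested Wnt feedback targets and TCF factors 2 were called higher, DKK1 and MYC (background 0.928%), neither of them with no block, and the median was -0.11. DKK1 (ENSG00000107984, chromosome 10, 52314296 to 52318042), a secreted inhibitor that binds the LRP co-receptor, was at 1.44, 10.8 and 8.43 CPM in control and 2.55, 22 and 19.5 CPM in Wnt1_KP6. Replicate 1 was the lowest library of each group, so the groups overlapped, but each pair differed in the same direction (1.04 ± 0.17, adjusted p = 0.04). AXIN2, the most widely used readout of beta-catenin activity, was low, at 2.32, 0.99 and 1.04 CPM in control and 1.75, 0.304 and 0.179 CPM in Wnt1_KP6. Its log2 fold change was -1.23 ± 0.42 (adjusted p = 0.159), and without replicate 1 it was called lower at -2.04 (adjusted p = 0.00532). Of its exon bases 25.2% overlap another gene on the same strand. LEF1, NKD1 and NOTUM were at or below 0.176 CPM in all 6 libraries and were not tested.

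No gene was called among 30 tested Wnt ligands, receptors and parts of the destruction complex, whose median was 0.05, or among 9 tested Klotho and FGF receptor genes (median 0.23). Over all tested genes the share called was 1.13%. Of 24 tested genes of the TGF-beta pathway 1 was called higher (background 0.928%) and none lower. This was BAMBI, a decoy receptor that is also a beta-catenin target, which rose by 1.41 ± 0.24 (adjusted p = 0.0471) from 1.19 to 1.37 CPM in control to 2.47, 4.91 and 3.31 CPM.

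Of 31 tested collagens and fibrotic matrix genes 2 were called higher (background 0.928%) and 1 lower (background 0.205%), the other 28 did not pass, and the median was -0.19. None of the 3 was called with no block. Fibronectin FN1, a matrix glycoprotein, was at 4712, 5508 and 5854 CPM in control and 6482, 8657 and 8372 CPM in Wnt1_KP6, with no overlap (0.54 ± 0.07, adjusted p = 0.0167). PLAT, the tissue plasminogen activator, rose by 0.81 ± 0.14 (adjusted p = 0.0479) and collagen XII COL12A1 fell by 0.60 (SE 0.08, adjusted p = 0.0241). LAMB3, a chain of an epithelial laminin, was at 59.1, 60.9 and 68.4 CPM in control and 123, 177 and 170 CPM in Wnt1_KP6 (1.32 ± 0.18, adjusted p = 0.0274). ITGB6, the integrin chain that activates latent TGF-beta, fell by 0.80 (SE 0.11, adjusted p = 0.0287), from 50, 88.5 and 79.1 CPM to 23.5, 50.5 and 55.5 CPM, and 20.6% of its exon bases overlap another gene on the same strand. CCN2, a matricellular product of YAP and TGF-beta signalling, was at 31.7, 185 and 193 CPM in control and 38, 1570 and 1530 CPM in Wnt1_KP6 and was not called (2.49 ± 0.74, adjusted p = 0.138). No gene was called among 21 tested YAP targets, where 1.13% of all tested genes were called. Without replicate 1 9 of them were called higher and 4 lower (19.8% and 17.6% of all genes).

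Of 30 tested p53 targets 4 were called higher (background 0.928%) and none lower, with a median of 0.36, from 0.08, 0.45 and 0.65 by replicate number. With no block only SFN was called, and without replicate 1 19 members were called higher and 2 lower (19.8% and 17.6% of all genes). SFN, the checkpoint protein 14-3-3 sigma, was at 105, 86.7 and 107 CPM in control and 206, 323 and 295 CPM in Wnt1_KP6, with no overlap (1.44 ± 0.16, adjusted p = 0.014). GADD45A, a growth arrest protein of the DNA damage response, was at 31.8, 63.3 and 66.2 CPM in control and 61.4, 288 and 268 CPM in Wnt1_KP6 (1.76 ± 0.26, adjusted p = 0.0366). Replicate 1 was the lowest library of both groups, and the Wnt1_KP6 value there lay within the control range. PMAIP1, the BCL2 family member NOXA that promotes apoptosis, and the nuclease AEN rose by 1.36 ± 0.21 and 1.07 ± 0.14. PMAIP1 was the only call among 16 tested BCL2 family genes (background 0.928% higher).

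Of 48 tested G2/M and mitosis genes 2 were called lower (background 0.205%) and none higher, and the other 46 did not pass. The median was -0.27, from -0.17, -0.42 and -0.24 by replicate number, and 44 of the 48 values lay below 0. Neither call held with no block, and without replicate 1 33 members were called lower and 2 higher (17.6% and 19.8% of all genes). ASPM, which organises spindle poles, was at 350, 407 and 365 CPM in control and 182, 252 and 264 CPM in Wnt1_KP6. All 3 Wnt1_KP6 libraries were below all control libraries, and ASPM fell by 0.70 (SE 0.10, adjusted p = 0.0287). CDCA2, which directs a phosphatase to mitotic chromatin, fell by 0.74 (SE 0.12, adjusted p = 0.047), from 47.7, 63.9 and 60.4 CPM to 36.5, 31.4 and 34.3 CPM. KNL1, a kinetochore scaffold outside the list, fell by 0.64 (SE 0.10, adjusted p = 0.041). DNA replication genes gave 0 calls of 41 tested (1.13% of all tested genes were called) and a median of -0.05.

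Several lists gave single calls, where 0.928% of all tested genes were called higher and 0.205% lower. KYNU, the kynureninase of tryptophan breakdown, was at 15.7, 12.2 and 11 CPM in control and 31.2, 38.3 and 33.8 CPM in Wnt1_KP6, with no overlap (1.41 ± 0.14, adjusted p = 0.0111). Iron handling held 1 call each way: the iron exporter SLC40A1 (ferroportin) fell by 0.84 (SE 0.11, adjusted p = 0.0207), from 33, 31.7 and 26.2 CPM to 18.9, 15.1 and 16.6 CPM, and the zinc and iron importer SLC39A14 rose by 0.55 ± 0.09 (adjusted p = 0.047). Of 34 tested hypoxia and glycolysis genes 3 were called higher (background 0.928%) and none lower. These were VEGFA, the vasodilator peptide ADM (1.45 ± 0.20) and EPAS1, the factor HIF-2 alpha (0.89 ± 0.10). None of the list was called with no block. Without replicate 1 9 members were called higher and 13 lower (19.8% and 17.6% of all genes). That list had its highest median in replicate 1 (0.64) and -0.07 and -0.12 in the others. No gene was called in the lists of EGFR ligands and receptors, circadian clock, ribosomal proteins, replication-dependent histones, kidney lineage factors, proximal tubule, distal nephron, podocyte, and fibroblast, endothelial and blood markers. The share over all tested genes was 1.13%. These lists differed in the fit without replicate 1. EGFR ligands and receptors then had 7 of 11 called higher and 1 lower, and the circadian clock list 10 of 19 higher and 1 lower. Ribosomal proteins had 0 of 50 higher and 14 lower. MYC was the only call of the tubular injury list.

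The remaining called genes with the largest changes belong to no list. NR0B1, a nuclear receptor that represses steroid synthesis, was at 3.62, 4.95 and 6.01 CPM in control and 10.5, 38.9 and 36.3 CPM in Wnt1_KP6 (2.44 ± 0.32, adjusted p = 0.0281). G0S2, an inhibitor of the lipase ATGL, was at 12.9, 3.63 and 5.01 CPM in control and 41.3, 26 and 21.3 CPM in Wnt1_KP6 (2.20 ± 0.25, adjusted p = 0.0159). Neither gene had overlapping groups. GFRA1, a receptor for GDNF, fell by 1.12 (SE 0.13, adjusted p = 0.0159) and differed greatly by replicate number, at 70.7, 420 and 419 CPM in control and 39.4, 173 and 180 CPM in Wnt1_KP6. SLC16A9, a carnitine and monocarboxylate transporter, fell by 0.99 (SE 0.15), and UGT8, which makes galactosylceramide, fell by 0.85 (SE 0.11), with no overlap in either. Lack of overlap was a condition of choice for genes taken by the size of their change, and 16.5% of all tested genes showed it.

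Among other genes that fell, the protease ADAM10 was at 230, 268 and 237 CPM in control and 168, 165 and 165 CPM in Wnt1_KP6 (-0.56 ± 0.09, adjusted p = 0.039). IKBIP fell by 0.61 (SE 0.10), and the Golgi mannosidase MAN2A1 fell by 0.49 (SE 0.08). The glucosyltransferase ALG10B fell by 0.78 (SE 0.12), the zinc finger gene ZNF738 fell by 0.77 (SE 0.13) and PURA, a binder of purine-rich nucleic acid, fell by 0.69 (SE 0.12). None of these 6 had overlapping groups, which was again a condition of choice for those taken by the size of their change.

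**Figure D5:**
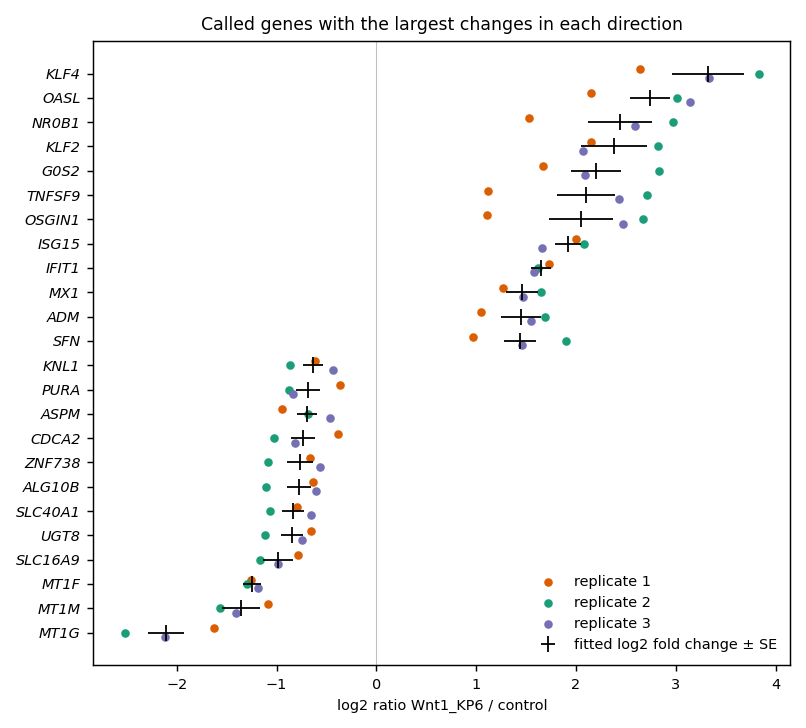
Log2 ratio of Wnt1_KP6 to control in replicates 1, 2 and 3 (coloured points) for the 12 called genes per direction that changed most. They were taken among genes with a mean of at least 5 CPM, no overlap between groups and the same sign in all 3 pairs. The fitted log2 fold change is a black tick and its SE the black bar. All points of a gene lie on the same side of 0 by that choice. IFIT1 and MT1F have nearly equal ratios in the 3 pairs, and TNFSF9 has 1.12 in replicate 1 and 2.71 and 2.43 in the others.

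How far a call rested on single libraries differed between genes. Over the 15 alternative fits, IFI44, IFIT1, IFIT2, ISG15 and OASL were called in 11, MT1F and ZC3HAV1 in 10, and the median called gene in 7. No gene was called by edgeR without replicate 2, without replicate 3 or without control replicate 2, where 595, 1659 and 1324 genes had an unadjusted p under 0.05. Without control replicate 3 11 genes were called, without Wnt1_KP6 replicate 2 or 3 6 each, without Wnt1_KP6 replicate 1 843 and without control replicate 1 4062.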

How the data were processed

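Poly(A) RNA was sequenced on an Illumina NovaSeq after Trizol extraction, per the labels' protocols. The submitters' processing notes name fastp 0.18.0, Bowtie2 2.2.8, HISAT2, StringTie 1.3.1, RSEM and hg38. The authors deposited expected counts per gene (87.6% whole numbers) and FPKM values for each library. The deposited expected counts were rounded and tested with edgeR 4.0.16 in R 4.3.3 (quasi-likelihood test, robust, TMM scaling, filterByExpr defaults, Benjamini-Hochberg adjustment). The replicate number entered as a block over all 9 libraries, which leaves 4 residual degrees of freedom. CPM values are TMM-scaled, and the deposited FPKM serve only to compare levels between genes. Fold changes are log2 with SE, called means an adjusted p under 0.05, and ratios within a replicate number use a prior count of 0.5.

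Numbers were taken to pair the libraries because the deviations of all 9 same-numbered pairs from their group means correlated at 0.112 to 0.654. Differently numbered libraries of replicates 2 and 3 in different groups correlated as much (0.134 to 0.345), so the pairing rests on replicate 1 against the rest. All libraries carry the batch label 1. Named genes were WNT1, ATF3, CTNNB1 and KL, then called genes with a mean of at least 5 CPM. In each direction, the 12 with the largest change were taken among protein-coding genes without overlap between groups and with the same sign in all pairs. Their lack of overlap and shared sign were thus conditions of choice, not results. The 8 with the largest smallest pair ratio and the 6 with the highest CPM, per direction, were added. Up to 5 members per list with the smallest p were added as well, called or not. Genes named outside this rule, among them IFIT3, IFIH1, DDX58, HERC5, HERC6, IRF7, RSAD2, OAS2, IRF1, FOSB, FOS, EGR1, MT2A, MT1X, ASNS, PINK1, BNIP3, AXIN2, CCN2, MRNIP and those of the closing section, were chosen after their values were seen. The comparison, its 43 lists and the named genes were chosen with earlier results of these data known, and the direct test of Wnt1_KP6 against Wnt1 was added after the data were seen. Of 20323 genes 20171 matched GENCODE release 29, which gave coordinates and shared exons. DESeq2 1.42.0 and other scalings, filters and library sets were run as alternatives. The fit was also run on simulated counts with a single dispersion for all genes and a replicate effect alike in every group. In the real libraries the size of change depended on the replicate number. The simulated counts therefore do not show how the test behaves on these data.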

Additional observations from a re-analysis of the deposited data

How the results depend on the processing

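The 149 calls (122 higher, 27 lower, 58 with a doubling) became 30 with no replicate block (25 higher, 5 lower, 14 with a doubling). A block fit to the 6 libraries alone called 16 (14 higher, 2 lower, 16 with a doubling). DESeq2 with the block called 958 (678 higher, 280 lower, 257 with a doubling), all 149 among them. DESeq2 size factors in edgeR gave 143, no filter on low counts 161 and a CPM filter 151. Leaving out 1 replicate or library gave 0 to 4884 calls, with 0 to 2584 higher, 0 to 2300 lower and 0 to 858 with a doubling. The highest counts came without replicate 1 (4884) and without control replicate 1 (4062), and edgeR gave 0 without replicate 2, replicate 3 or control replicate 2. In these 3 fits 595, 1659 and 1324 genes had an unadjusted p under 0.05, and the lowest adjusted p was 0.453, 0.244 and 0.0815. Where a group kept 2 libraries with its number unpaired, the spread was shared with the other groups. Values near 0 changed sign when single libraries were left out: ASNS ran from -0.41 to 0.15, CTNNB1 from -0.05 to 0.04, GGT1 from -0.14 to 0.09 and SLC30A1 from -0.27 to 0.22. Of the 149 genes, 147 kept their direction in all 15 alternatives, and INO80B-WBP1 and TMEM158 kept it in the 13 and 14 in which they were tested. The cause of these differences was not tested. With 3 libraries a group the counts below about 1 CPM give uncertain folds.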

Other observations

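Of the 149 called genes 90 were in no list, 71 higher and 19 lower in Wnt1_KP6. Among these, DDX60, an RNA helicase of the antiviral response, was at 103, 46.1 and 39.7 CPM in control and 260, 76.5 and 84.1 CPM in Wnt1_KP6 (1.05 ± 0.12, adjusted p = 0.014). Control replicate 1 lay above Wnt1_KP6 replicates 2 and 3, so the groups overlapped. Spermine oxidase SMOX was at 37.6, 11 and 12.8 CPM in control and 79.2, 28.6 and 26.9 CPM in Wnt1_KP6 (1.17 ± 0.10, adjusted p = 0.00536), with overlap of the same kind. Both had their highest library in replicate 1 of each group, as IFIT1 did.

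PPIF, the mitochondrial cyclophilin D that regulates the permeability transition pore, was at 118, 114 and 119 CPM in control and 206, 359 and 316 CPM in Wnt1_KP6, with no overlap (1.28 ± 0.15, adjusted p = 0.0161). Uridine phosphorylase UPP1 was at 86.9, 110 and 118 CPM in control and 207, 243 and 220 CPM in Wnt1_KP6, also with no overlap (1.09 ± 0.12, adjusted p = 0.014). The imprinted gene PHLDA2 rose by 1.36 ± 0.13 (adjusted p = 0.00915).

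RSPO3, a secreted protein that raises Wnt receptor levels and stood in no list, was at 1.51, 0.77 and 0.809 CPM in control and 3.23, 3.65 and 2.86 CPM in Wnt1_KP6. The groups did not overlap, and the change just passed (1.67 ± 0.29, adjusted p = 0.0496). In the libraries labelled Wnt1, set against the same controls, RSPO3 was at 3.16, 3.66 and 2.04 CPM. The homeobox gene HOXA2 was at 2.15, 2.35 and 2.66 CPM in control and 0.837, 0.868 and 0.983 CPM in Wnt1_KP6, with ratios of -1.34, -1.41 and -1.41 (-1.40 ± 0.22, adjusted p = 0.0366).

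INO80B-WBP1, a readthrough gene on chromosome 2, was listed at 0 in all 3 control libraries and at 1.87, 2.65 and 0.358 CPM in Wnt1_KP6. All of its exon bases (100%) are shared with other genes on the same strand, so how reads were divided among them is uncertain.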
